A study of Mus musculus with 58 samples.

Results

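The genes described here are 53 genes of mitosis, the spindle and the kinetochore, out of 20678 named genes on the array. They were chosen by name and not by their values, though with earlier results of these data known. Their products drive entry into mitosis, attach chromosomes to spindle microtubules, separate them and divide the cell. All 53 were measured, each by the brightest of its probes. The mice were male MutaTMMouse of about 13 weeks of age, a transgenic strain that carries a bacterial reporter gene for scoring mutations. They were gavaged every day for 28 days with olive oil alone (vehicle) or with indeno(123,cd)pyrene, a polycyclic aromatic hydrocarbon, in the same oil. Its low, middle and high doses were 12.5, 25 and 50, all in mg per kg of body weight and day. Lung, liver and forestomach were taken 72 h after the last dose. Lung had 5 mice in each of the 4 groups, and liver and forestomach had 4 vehicle mice and 5 mice at each dose, which gave 58 arrays. Each array carried RNA of 1 tissue of 1 mouse in Cy5 and universal mouse reference RNA from 11 mouse cell lines in Cy3, so a level is the log2 ratio of tissue to reference after loess normalization and is negative where the tissue held less of a transcript than the reference. Tissues were random sections holding many cell types. A higher level from more dividing cells cannot be told apart from more RNA per cell.

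Mitosis begins when cyclin B binds and activates the kinase CDK1. Kinetochores, the protein plates on centromeres, then capture spindle microtubules, and the spindle checkpoint holds the cell until every chromosome is attached. CDC20 then turns on the anaphase promoting complex, which degrades securin and the cyclins so that sister chromatids part. Most of these transcripts are made in G2 and M phase, when the repressor complex that holds them down in resting cells gives way to activators. That complex binds a short promoter element called CHR, and NF-Y binds CCAAT boxes nearby. Adult lung and liver hold few dividing cells, whereas the basal layer of the forestomach epithelium divides throughout life.

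Promoters were examined because these genes are known for sharing the elements just named. In RefSeq promoter entries of build GRCm38.p6, which span 250 bases before to 50 bases after the gene start, 42 of the 53 genes had an entry. The genes without one were Ccna2, Cdc25c, Pbk, Aurkb, Incenp, Spc24, Ska1, Kif20a, Tpx2, Dlgap5 and Pimreg. The stretches of 160 bases shown here run from 150 bases before the start to 10 bases after it, 5′ to 3′, for the 5 genes with an entry that were called higher in lung at the highest dose. Capitals mark a CHR (TTTGAA or TTCAAA) or a CCAAT box (CCAAT or ATTGG). Spc25 is at chr2:69206204-69206363 (minus strand), Birc5 at chr11:117849087-117849246 (plus strand), Mki67 at chr7:135716370-135716529 (minus strand), Cdc20 at chr4:118437334-118437493 (minus strand) and Cenpe at chr3:135212413-135212572 (plus strand).
Spc25: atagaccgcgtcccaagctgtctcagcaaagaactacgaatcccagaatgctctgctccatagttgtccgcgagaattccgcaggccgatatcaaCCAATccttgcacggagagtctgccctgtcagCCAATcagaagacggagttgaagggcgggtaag
Birc5: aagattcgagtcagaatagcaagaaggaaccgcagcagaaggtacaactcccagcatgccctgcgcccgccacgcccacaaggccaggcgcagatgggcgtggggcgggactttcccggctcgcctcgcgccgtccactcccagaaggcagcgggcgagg
Mki67: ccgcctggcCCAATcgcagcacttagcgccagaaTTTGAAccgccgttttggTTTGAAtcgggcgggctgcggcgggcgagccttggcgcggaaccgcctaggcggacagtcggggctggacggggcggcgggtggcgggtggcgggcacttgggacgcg
Cdc20: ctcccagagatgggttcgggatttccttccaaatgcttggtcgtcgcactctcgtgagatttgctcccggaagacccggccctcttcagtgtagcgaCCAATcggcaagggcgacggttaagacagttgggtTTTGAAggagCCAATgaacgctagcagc
Cenpe: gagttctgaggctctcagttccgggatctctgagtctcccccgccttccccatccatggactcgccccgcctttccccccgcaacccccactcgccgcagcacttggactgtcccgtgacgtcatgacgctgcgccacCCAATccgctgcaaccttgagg

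The whole window of 300 bases was searched on both strands, and a gene counted if any of its promoter entries held the letters. The CHR letters were found for 32 of the 42 genes (76.2%), against 20.2% of all 27025 genes with an entry. A CCAAT box was found for 33 (78.6% against 41.1%), and both elements in the same entry for 28 (66.7% against 7.97%). The core of the xenobiotic response element, GCGTG or CACGC, to which the activated aryl hydrocarbon receptor (AhR) binds, was found for 26 (61.9% against 35.2%). These are letter matches and not sites shown to be bound. The printed Mki67 stretch holds 2 CHR matches after its CCAAT box, the Cdc20 stretch holds a CHR between its CCAAT boxes, and the window of Birc5 held neither element. The 32 genes with a CHR had a median log2 fold change of 0.37 in lung at the high dose, and the 10 without had 0.47.

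Probes that stood well above background in Cy5 made up 53.0% to 90.7% of all probes on the lung arrays, 37.7% to 79.0% on the liver arrays and 43.1% to 85.9% on the forestomach arrays. Lung and forestomach arrays were on 5 slides that held every dose (no vehicle array of forestomach on slide 3), and liver arrays on 3. On slide 3, 83.9% to 90.7% of lung probes were above background, and its mice had the highest mean level over the 53 genes in all 4 dose groups. In liver, mice 9, 13, 15, 16 and 20 stood apart with 66.7% to 79.0% of probes above background against 37.7% to 45.0% on the other arrays. Each dose sat in its own array column in lung and forestomach, so column and dose cannot be told apart. Tissue markers were highest in the labelled tissue: the mean of 6 alveolar type 2 markers was 4.85 to 5.64 in lung and at most 0.83 elsewhere. The mean of 7 hepatocyte markers was 7.74 to 8.99 in liver, at most 1.12 in lung and 0.41 to 3.90 among forestomach arrays. The mean of 6 basal keratinocyte markers was 2.53 to 3.55 in forestomach and at most 0.90 elsewhere. The mean of 7 glandular stomach markers ran from 0.70 to 6.46 among forestomach arrays.

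The first question was whether the levels of these genes changed with the dose in lung. At the high dose 49 of the 53 genes had a mean above that of the vehicle mice, with a median log2 fold change of 0.38 (0.01 over all genes). A gene is called here if its fold change was 1.5 or more and its p in limma, after Benjamini-Hochberg adjustment over all probes, did not exceed 0.05. By that rule 7 genes rose (13.2% of the 53), where 0.145% of all genes were called: the kinetochore gene Spc25, the passenger gene Birc5, the chromatin gene Pimreg, the cyclin Ccna2, the proliferation marker Mki67, the checkpoint target Cdc20 and the kinetochore motor Cenpe. None fell. Without the limit on the fold change 8 genes passed (0.319% of all genes were higher by that rule), the eighth being the condensin subunit Ncapd2. At an unadjusted p under 0.05, 30 were higher (7.95% of all genes) and 1, Hmmr, was lower (4.53% of all genes). In 4 genes, Birc5, Pimreg, Cdc20 and Cenpe, all exposed mice lay above all vehicle mice, as in 2.32% of all genes.

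**Figure D1:**
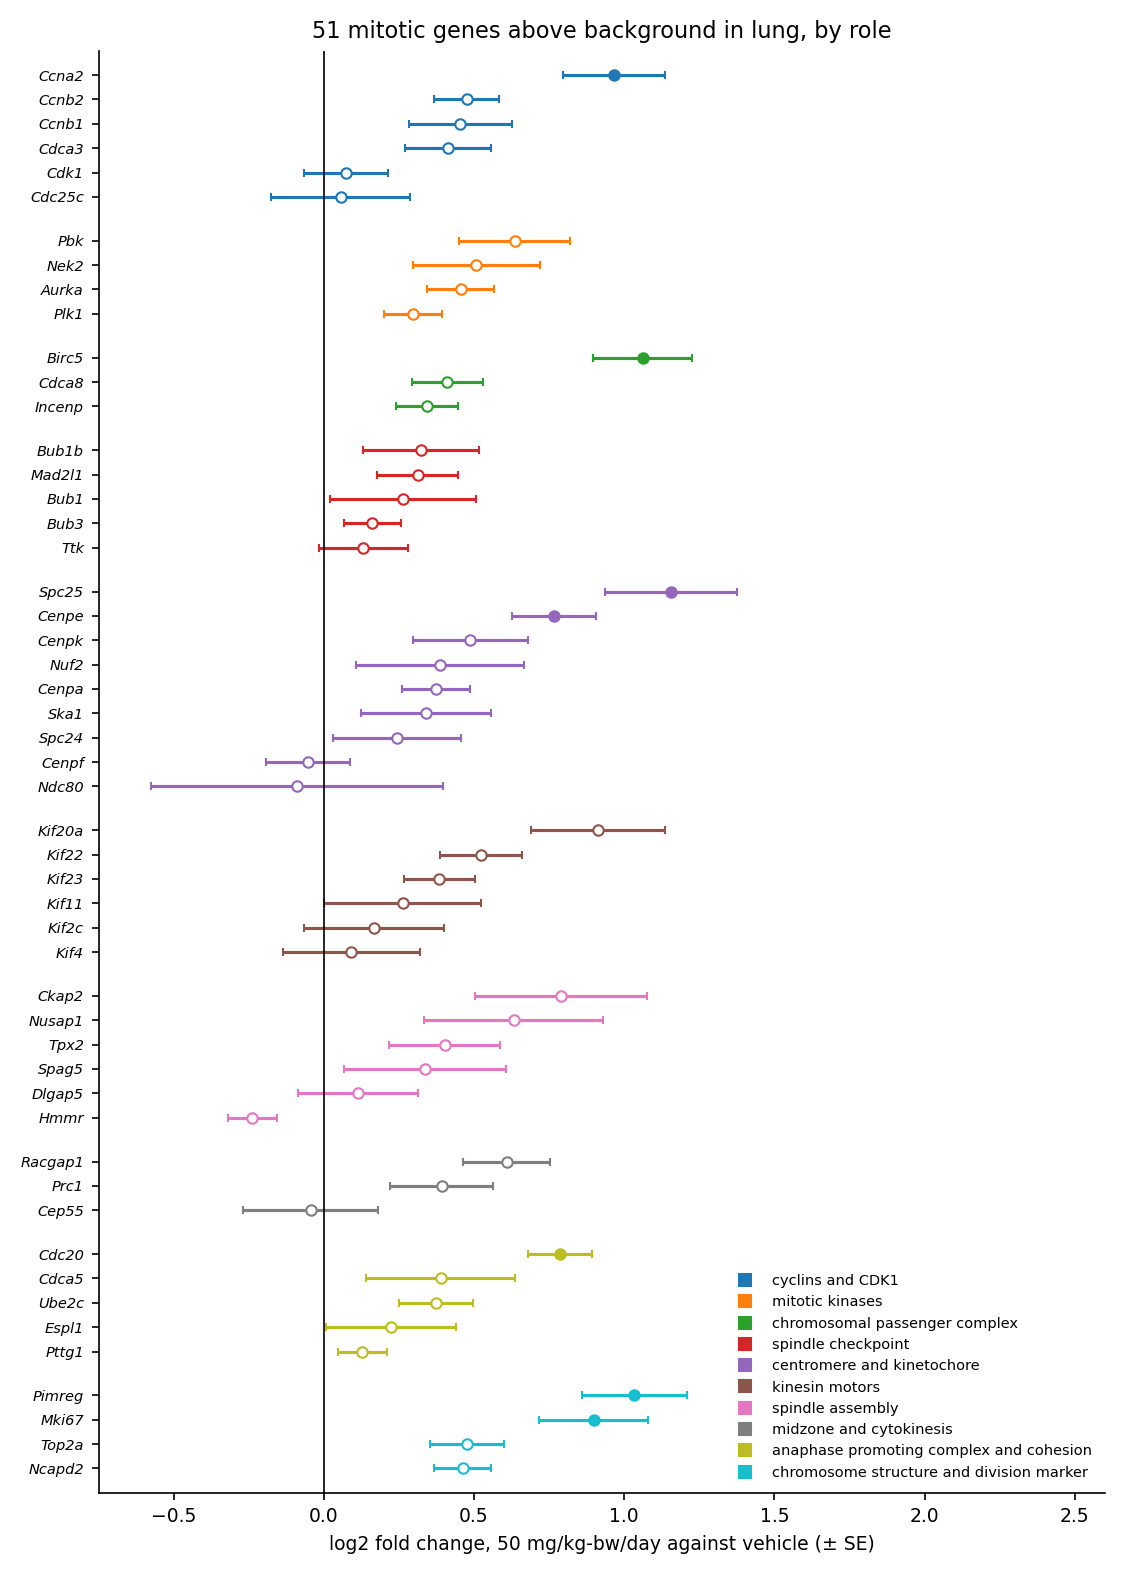
Log2 fold change of each of 51 genes in lung at the high dose against vehicle (x axis), with bars for 1 SE, ordered by role (y axis). Filled points are the 7 genes called higher, the 2 genes not well above background in either group (Aurkb and Ncapg) are left out, and 47 of the 51 points lie to the right of 0.

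Spc25 is a subunit of the NDC80 complex, which grips microtubule ends at the kinetochore. Its log2 ratio was -4.02, -4.40, -3.77, -4.11 and -4.37 in vehicle mice 1 to 5 and -3.06, -2.76, -2.68, -2.43 and -3.97 in mice 16 to 20 at the high dose. Mice 16 to 19 lay above every vehicle mouse, whereas mouse 20 lay inside the vehicle range. The difference was 1.16 on the log2 scale (SE 0.22), a 2.23-fold rise (limma, Benjamini-Hochberg adjusted p = 0.0288; exact two-sided permutation p = 0.0159, n = 5 and 5). The smallest p this permutation test can give is 0.00794.

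Birc5 encodes survivin, which takes the chromosomal passenger complex to centromeres. It read -4.69, -4.75, -4.39, -4.56 and -4.68 in vehicle mice and -3.56, -3.52, -3.35, -3.09 and -4.25 at the high dose, with no overlap. The rise was 1.06 (SE 0.16), or 2.09-fold (limma with Benjamini-Hochberg, adjusted p = 0.00751; exact permutation p = 0.00794). This rests on 1 probe, since the other probes of Birc5, which were dimmer, gave 0.34 and 0.07 and were not called. With the probes averaged the rise was 0.49 and the call was lost (limma, adjusted p = 0.50).

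Pimreg encodes a chromatin-associated mitotic regulator that binds the clathrin assembly protein CALM. Its level was -3.71, -4.11, -3.41, -3.85 and -3.93 in vehicle mice and -2.76, -2.73, -2.73, -2.36 and -3.26 at the high dose. All 5 exposed mice lay above the highest vehicle mouse, and the rise was 1.03 (SE 0.18; limma with Benjamini-Hochberg, adjusted p = 0.0134; exact permutation p = 0.00794).

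Ccna2 encodes cyclin A2, which serves both S phase and entry into mitosis. Its level was -3.95, -4.17, -3.70, -3.92 and -4.30 in vehicle mice and -3.20, -3.03, -2.78, -2.47 and -3.72 at the high dose. Mouse 20 alone lay below the highest vehicle mouse, and the rise was 0.97 (SE 0.17), or 1.95-fold (limma with Benjamini-Hochberg, adjusted p = 0.0173; exact permutation p = 0.0159).

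Mki67 encodes the Ki-67 protein, which coats mitotic chromosomes and is the standard stain for dividing cells. It read -3.95, -4.23, -3.61, -3.99 and -4.14 in vehicle mice and -3.00, -3.08, -2.84, -2.63 and -3.88 at the high dose, with mouse 20 again inside the vehicle range. The rise was 0.90 (SE 0.18), or 1.86-fold (limma with Benjamini-Hochberg, adjusted p = 0.0444; exact permutation p = 0.0159). A second probe of Mki67 rose by 0.96 (limma, adjusted p = 0.00956).

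Cdc20 encodes the activator of the anaphase promoting complex, the protein that the spindle checkpoint holds back. Its level was -3.21, -3.79, -3.39, -3.58 and -3.68 in vehicle mice and -2.76, -2.58, -2.71, -2.57 and -3.08 at the high dose. The groups did not overlap, and the rise of 0.79 (SE 0.11), or 1.73-fold, had the lowest adjusted p of the 53 genes (limma with Benjamini-Hochberg, 0.0021; exact permutation p = 0.00794).

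Cenpe encodes the kinesin that carries chromosomes to the middle of the spindle. It read -4.63, -4.80, -4.29, -4.26 and -4.50 in vehicle mice and -3.91, -3.85, -3.36, -3.39 and -4.14 at the high dose. Again no value overlapped, and the rise was 0.77 (SE 0.14), or 1.70-fold (limma with Benjamini-Hochberg, adjusted p = 0.0214; exact permutation p = 0.00794).

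**Figure D2:**
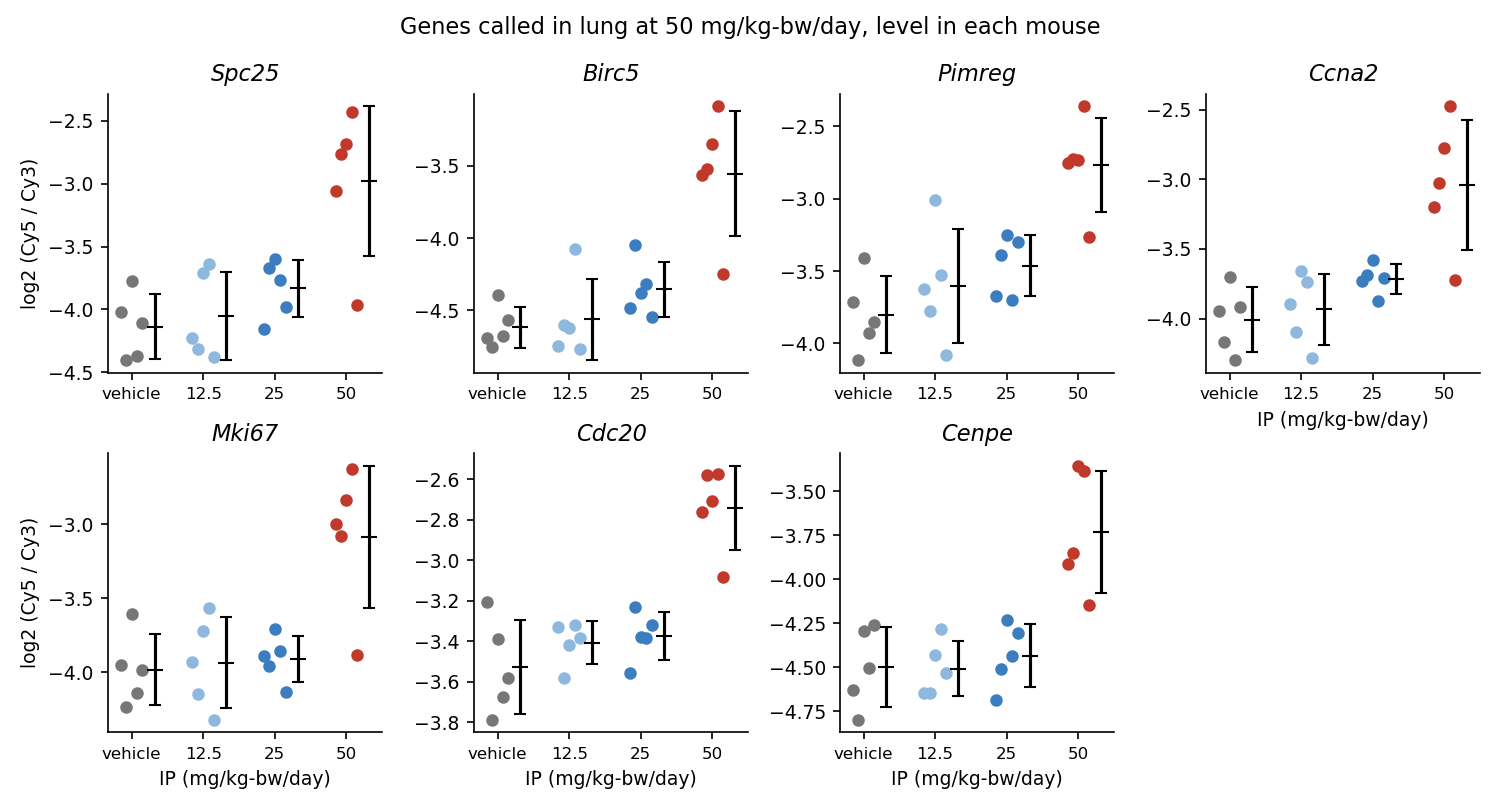
Log2 ratio of tissue to reference RNA (y axis) of the 7 genes called in lung at the high dose, by dose in mg per kg of body weight and day (x axis), with 1 point per mouse and a line at each group mean. Bars show the SD of the group. The means at the low and middle doses lie within 0.34 of the vehicle mean, and at the high dose mouse 20 is the lowest of the 5 in every gene.

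Mouse 20 had the lowest value of the 5 exposed mice in all 7 genes. Over the 53 genes it exceeded the highest vehicle mouse in 6, whereas the other mice did so in 23 to 43. Against the vehicle mouse on its own slide it was higher in 35 genes, and the others in 45 to 50. By that comparison low-dose mice were higher in 11 to 40 genes and middle-dose mice in 21 to 44. Shares of all genes were not counted for these counts of single mice. The mean of mouse 20 over 5 AhR target genes was 2.13, within the 0.96 to 2.44 of the high-dose group and above the -0.81 to -0.17 of the vehicle mice. Without mouse 20 the number of called genes was 10, and the share of all genes called in that fit was not counted.

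By role, the cyclins and their partners all had means above vehicle in lung at the high dose. Of these 6 genes 1 was called and 4 had an unadjusted p under 0.05, with a median of 0.43. The mitotic cyclins Ccnb1 and Ccnb2 had differences of 0.45 and 0.48, and Cdca3, which helps remove the CDK1 inhibitor WEE1, of 0.41. Cdk1 itself had 0.07 (SE 0.14) and Cdc25c, the phosphatase that activates CDK1, 0.06 (SE 0.23), both on probes above background on few of the arrays (3 and 4 of the 10).

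All 4 mitotic kinases had an unadjusted p under 0.05, with a median of 0.48, but none was called. The differences were 0.30 for Plk1, which works at centrosomes and kinetochores, 0.46 for the spindle pole kinase Aurka, 0.51 for the centrosome kinase Nek2 and 0.63 (SE 0.18) for the mitotic kinase Pbk (limma, adjusted p = 0.18). Plk1 was at -2.06, -2.16, -2.05, -1.99 and -2.58 at the high dose and at -2.47, -2.58, -2.51, -2.25 and -2.51 in vehicle mice. Once more 4 exposed mice lay above all vehicle mice and mouse 20 did not.

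In the chromosomal passenger complex, which corrects faulty attachments, Birc5 was called, and Incenp (0.34) and Cdca8 (0.41) had an unadjusted p under 0.05. Its kinase Aurkb was not well above background on any array of either group, so no fold change is given. Among the 5 spindle checkpoint genes none was called and 1, Mad2l1 (0.31), had an unadjusted p under 0.05. Mad2l1, Bub1b and Bub3 form the complex that holds CDC20, and Bub1 and Ttk are the kinases that recruit it. The others had 0.26 (Bub1), 0.32 with an SE of 0.19 (Bub1b), 0.16 (Bub3) and 0.13 with an SE of 0.15 (Ttk). The Ttk probe was above background on only 1 of the 5 vehicle arrays. This role had the lowest median, 0.26. The dimmer probes of Mad2l1 gave -0.12 and 0.15.

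Of the 9 centromere and kinetochore genes 7 had means above vehicle, 2 were called and the median was 0.37. Spc25 rose, but its partners in the NDC80 complex did not pass any threshold: Nuf2 had 0.39, Spc24 0.24 and Ndc80 -0.09 (SE 0.49). Ndc80 had a wide spread, from -3.10 to -0.73 among vehicle mice and from -2.92 to -1.20 at the high dose, with the highest value of each group on slide 3. Cenpa, the histone variant of centromeres, had 0.37 and Cenpk, of the inner kinetochore, 0.49, both at an unadjusted p under 0.05. Ska1, which keeps kinetochores on shrinking microtubules, had 0.34 and the outer kinetochore protein Cenpf -0.05. Of the 5 vehicle arrays, Cenpf was above background on 2, and Ska1 and Nuf2 on 3 each.

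The 6 kinesin motors were all above vehicle in the mean, with a median of 0.32 and none called. Kif20a, which moves the passenger complex to the midzone, had 0.91 (SE 0.22; limma with Benjamini-Hochberg, adjusted p = 0.097; exact permutation p = 0.0159). Its level was -3.75, -3.998, -3.31, -4.26 and -4.16 in vehicle mice and -3.26, -2.82, -2.46, -2.70 and -3.68 at the high dose. Mouse 20 alone lay below the highest vehicle mouse, mouse 3. Kif22, which pushes chromosome arms outward, had 0.52 and Kif23, the motor of centralspindlin, 0.38, both at an unadjusted p under 0.05. Kif11, which drives spindle poles apart, had 0.26 and the microtubule depolymerase Kif2c 0.17, and Kif4, which compacts chromosomes and shortens the midzone, had 0.09 (SE 0.23). The Kif2c probe was above background on 2 of the 5 vehicle arrays.

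Among the 6 spindle assembly genes Ckap2, a microtubule-stabilizing protein, had 0.79 (SE 0.29), Nusap1 0.63 and Tpx2, the activator of Aurora A, 0.40, all at an unadjusted p under 0.05 and none called. The spindle proteins Spag5 and Dlgap5 had 0.34 and 0.11. Ckap2 and Dlgap5 were each above background on 3 of the 5 vehicle arrays. Hmmr, a spindle pole protein that also serves as a hyaluronan receptor, was the 1 gene lower at an unadjusted p under 0.05. It read -1.46, -1.63, -1.53, -1.74 and -1.63 in vehicle mice and -1.67, -2.09, -1.91, -1.69 and -1.82 at the high dose. The groups overlapped and the difference of -0.24 (SE 0.08) was not called (limma with Benjamini-Hochberg, adjusted p = 0.30; exact permutation p = 0.0317), and it was 0.027 when arrays were centred on their medians, where the median of all genes was 0.12.

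Racgap1, a component of the centralspindlin complex that places the cleavage furrow, had 0.61 (SE 0.14; limma with Benjamini-Hochberg, adjusted p = 0.0867), Prc1, which bundles midzone microtubules, 0.39, and Cep55, which acts when daughter cells part, -0.04 (SE 0.22). Of the genes of chromatid separation, Cdc20 was called and Ube2c, the ubiquitin-conjugating enzyme of the anaphase promoting complex, had 0.37, with 0.61 on its second probe. Securin, Pttg1, had 0.13 (SE 0.08), separase, Espl1, 0.22, and the cohesion factor Cdca5 0.39. Among genes of chromosome structure Mki67 and Pimreg were called, Ncapd2 had 0.46 (SE 0.10; limma, adjusted p = 0.0486), the decatenating enzyme Top2a 0.48, and Ncapg was not well above background in either group.

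Slides allowed a comparison of mice that were hybridized together. With slide as a block 12 of the 53 genes were called (0.522% of all genes), the 7 above with Kif20a, Ckap2, Pbk, Nusap1 and Racgap1 added, and 25 were higher by adjusted p alone (2.3% of all genes). Within the 5 slides 27 genes were higher in the exposed mouse every time, as were 10.3% of all genes. Spc25 was higher by 0.15 to 1.94, Birc5 by 0.32 to 1.59, Cdc20 by 0.45 to 1.21 and Mki67 by 0.10 to 1.51. Hmmr was lower on all 5 slides, with differences of -0.46 to -0.07.

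The number of calls moved with the processing more than the direction did. It was 0 when arrays were centred on their medians, when Cy5 was used alone, when the log ratio of the scanner software was used and when only these 2 groups were fitted, and all 7 genes stayed higher in each. With centring on array medians all genes had a median of 0.12 and the 53 genes one of 0.59, a gap of 0.47. Without slide 3 there were 3 calls, and without single mice 2 (vehicle mouse 2 or mouse 19), 3 (vehicle mouse 5 or mouse 18), 4 (mouse 17) and 10 (mouse 20). Cdc20 and Birc5 were called whichever of the 10 mice was left out, Pimreg in 8 of the 10 cases, Cenpe in 6, Ccna2 in 5, Spc25 in 3 and Mki67 in 2.

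**Figure D3:**
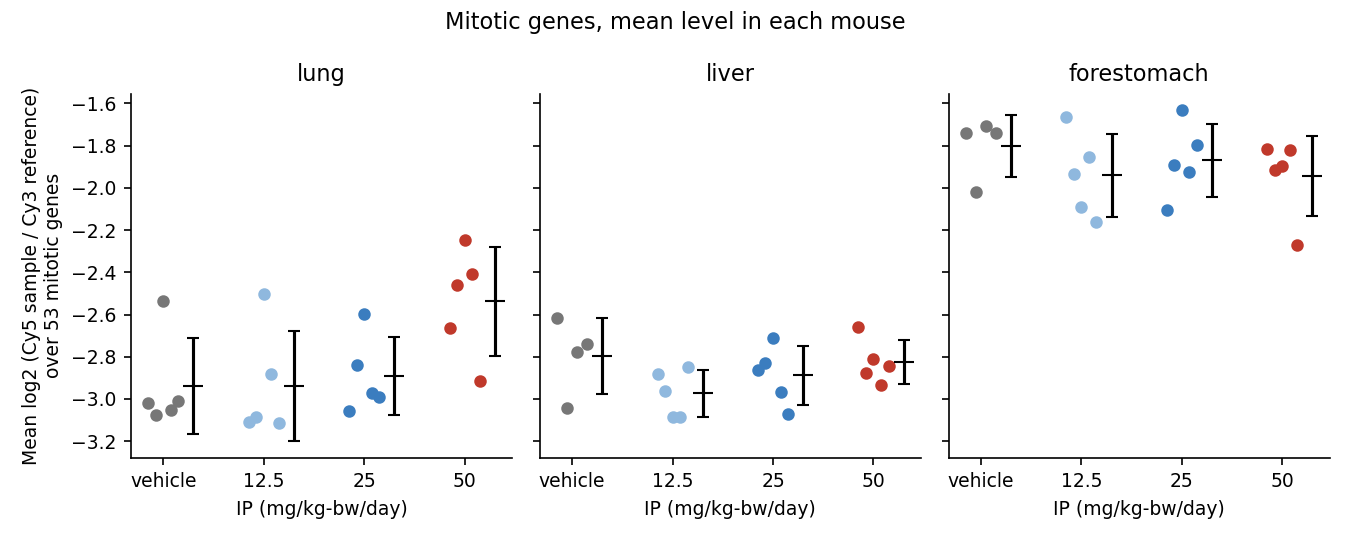
Mean log2 ratio over the 53 genes (y axis) for every mouse by dose in mg per kg of body weight and day (x axis) in lung, liver and forestomach, with a line at each group mean. Bars show the SD of the group. In lung the group mean was -2.94 in vehicle mice and -2.54 at the high dose, where mouse 20 (-2.91) lies in the vehicle range of -3.08 to -2.53.

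The lower doses in lung gave no calls. At the low dose 25 of the 53 genes were above vehicle in the mean, the median was -0.01, 0 genes were called in limma (0% of all genes) and 0 had an unadjusted p under 0.05 (5.29% of all genes in either direction). At the middle dose 32 were above vehicle, the median was 0.04, and again 0 were called (0.0145%) and 0 had an unadjusted p under 0.05 (9.44%). The 7 genes called at the highest dose had differences of -0.01 to 0.20 at the low dose and 0.06 to 0.34 at the middle dose. Birc5 at the middle dose read -4.48, -4.05, -4.38, -4.32 and -4.54, in every mouse above the vehicle mean of -4.62, and the difference of 0.26 (SE 0.16) was not called (limma, adjusted p = 0.89). Pimreg and Ccna2 were likewise above the vehicle mean in 5 of 5 mice at that dose, by 0.34 and 0.29.

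Set directly against the low dose, the high-dose group was higher in 52 of the 53 genes and 29 had an unadjusted p under 0.05 (2.55% of all genes). None was called (0.00484% of all genes), the lowest adjusted p in limma being 0.0573. With slide as a block there were 10 calls, and without mouse 20 there were 9. The share of all genes called was not counted in either of these fits.

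**Figure D4:**
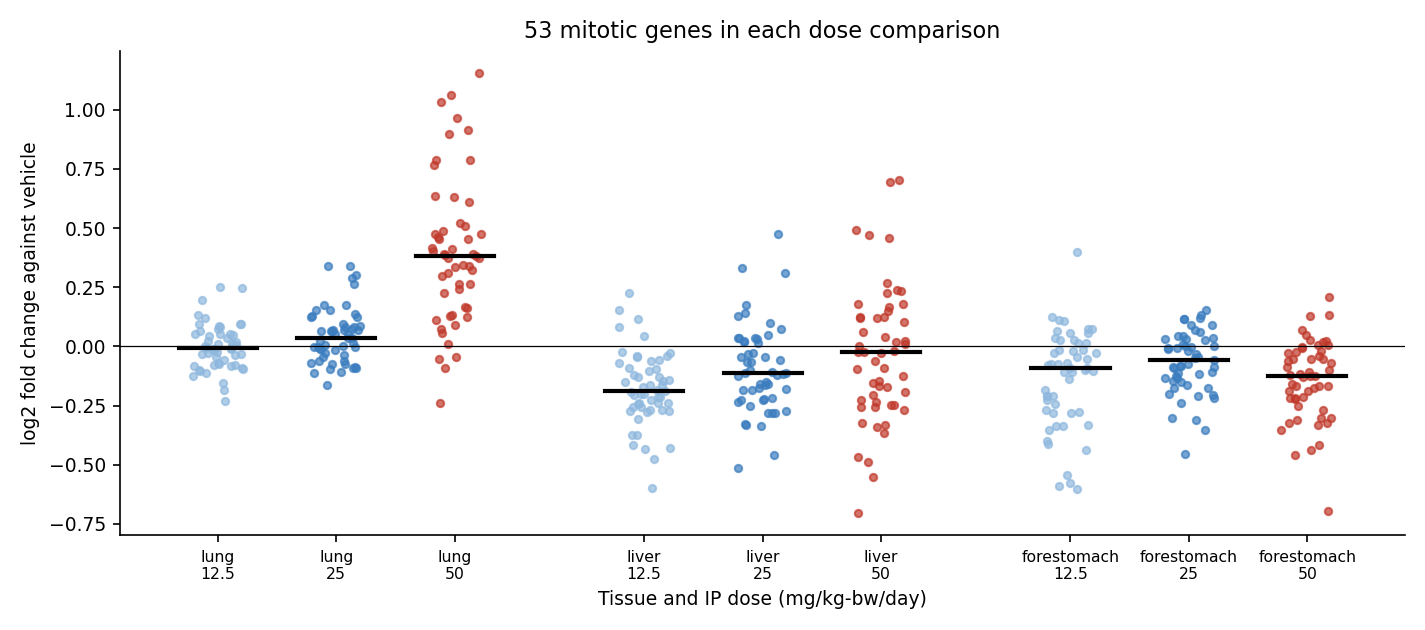
Log2 fold changes of the 53 genes (y axis, 1 point per gene, with the median as a line) against vehicle at each dose in mg per kg of body weight and day (x axis) in lung, liver and forestomach. Lung had medians of -0.01, 0.04 and 0.38, liver of -0.19, -0.11 and -0.02, and forestomach of -0.09, -0.06 and -0.12.

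Other genes of the cell cycle were read from lists given by function, which were also chosen with earlier results known. Among all genes in lung at the high dose, 7.95% were higher and 4.53% lower at an unadjusted p under 0.05, and 0.145% were called. Of 63 other mitotic genes 57 were above vehicle in lung at the high dose, 13 with an unadjusted p under 0.05, and 2 were called, the scaffold gene Iqgap3 (0.74; limma, adjusted p = 0.00751) and the spindle gene Tacc3 (0.63; adjusted p = 0.0134). The spindle pole gene Aspm had 0.73 and was not called (limma, adjusted p = 0.134). The median of the 63 genes was 0.22. Of 38 S phase genes, which serve DNA replication, 29 were above vehicle and 17 had an unadjusted p under 0.05, with a median of 0.21 and none called. Rrm2, the regulatory subunit of ribonucleotide reductase, had 0.76 and the maintenance methylation factor Uhrf1 0.54. Of 20 regulators of these genes 7 were higher at that level, with E2f8 at 0.45 and Rbl1 at 0.39. Of 15 CDK inhibitors and arrest genes 3 were higher and 1 was lower, with Cdkn2b at 0.35 and Sfn at -0.35. At the low and middle doses no other mitotic gene had an unadjusted p under 0.05 (5.29% and 9.44% of all genes in either direction).

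Markers of other cell types were read beside these genes, where again 7.95% of all genes were higher and 4.53% lower at an unadjusted p under 0.05 and 0.145% were called in lung at the high dose. Of 8 B cell markers 7 were above vehicle in lung at the high dose, 4 at an unadjusted p under 0.05 and none called, with a median of 0.71, and Ms4a1 had 1.02 and Cd79b 0.96. Their mean level was 0.24 to 1.51 in vehicle mice and 1.28 to 1.82 at the high dose, and the median difference was already 0.45 and 0.66 at the low and middle doses, where the mitotic genes had -0.01 and 0.04. At an unadjusted p under 0.05, 1 of 7 T cell markers was higher, as were 0 of 10 thymocyte, 0 of 5 macrophage and 0 of 8 myeloid precursor markers, and of 8 erythroid precursor markers 1 was higher and 1 lower. Of 6 alveolar type 2 markers 1 was higher. Their part in the result was not tested. Of 5 AhR target genes 2 were called in lung, Cyp1b1 (3.64) and Ahrr (2.50), and Cyp1a1 had 4.24 (limma with Benjamini-Hochberg, adjusted p = 0.0837).

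In liver none of the 53 genes was called in limma at any dose (0%, 0% and 0% of all genes at the rising doses). At the low dose 4 had an unadjusted p under 0.05, all lower (2.75% of all genes in either direction), and at the middle dose 3, all lower (4.75%). At the high dose 2 were higher (3.36% of all genes) and 7 lower (4.95%). Of these 4, 3 and 7 lower genes only 2, 2 and 3 were above background in both groups, the 3 at the high dose being Plk1, Hmmr and Top2a. Only 33 of the 53 genes were measured above background in both groups at each dose. At the low dose 48 of the 53 genes were below vehicle in the mean, where 47.2% of all genes were above it. Of the 33 measured genes 2 were above vehicle there. With arrays centred on their medians 43 of the 53 were above, where the median of all genes was 0.17. With that centring 23 genes were higher and 0 lower at the high dose, at an unadjusted p under 0.05. The log ratio of the scanner software gave 15 and 2, and the share of all genes was not counted in either. Among genes above background in both groups the 3 highest differences at the high dose were those of Cdc20, Spc25 and Mki67, which are also among the 7 of lung.

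Cdc20 in liver was at -4.69, -5.05, -4.53 and -4.32 in vehicle mice 1, 2, 3 and 5 and at -3.64, -3.78, -4.22, -3.98 and -4.10 in mice 16 to 20. The groups did not overlap (1.52% of all genes were separated that way), and the difference of 0.70 (SE 0.17) was not called (limma with Benjamini-Hochberg, adjusted p = 0.385; exact permutation p = 0.0159, the smallest that 4 against 5 mice can give). In 3 other genes, Ska1, Kif2c and Kif4, named after their values were seen, all exposed mice lay below all vehicle mice (1.56% of all genes), but none of these was above background in any vehicle mouse. Spc25 read -3.05, -3.19, -3.28 and -2.84 against -2.78, -2.30, -2.85, -2.63 and -2.41, a difference of 0.49 (SE 0.15; limma, adjusted p = 0.651; exact permutation p = 0.0317). The difference of Mki67 was 0.46 (SE 0.28). Mouse 16, one of the liver arrays with the most probes above background, had the highest Cdc20 and Mki67 of its group. Hmmr had -0.37 (SE 0.15) and Top2a -0.49 (SE 0.23), the latter above background in 1 of 4 vehicle mice. With arrays centred on their medians they had 0.20 and 0.17, where the median of all genes was 0.28, so that both stayed below it. With the log ratio of the scanner software Top2a had 0.15, above the median of all genes of 0.050.

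In forestomach none of the 53 genes was called in limma either (0%, 0% and 0% of all genes). At the low dose 2 had an unadjusted p under 0.05, both lower (4.49% of all genes in either direction), at the middle dose 0 (3.95%), and at the high dose 0 were higher (2.64%) and 2, Tpx2 and Mki67, lower (1.57%). Of the 53 genes 43 were below vehicle in the mean at the high dose, where 52.4% of all genes were above it. With arrays centred on their medians 48 of the 53 were above, where the median of all genes was 0.21. Mki67 read -1.91, -2.41, -1.55 and -1.58 in vehicle mice and -1.94, -2.75, -3.05, -2.12 and -2.93 at the high dose. The ranges overlapped and the difference was -0.70 (SE 0.32; limma with Benjamini-Hochberg, adjusted p = 1; exact permutation p = 0.0635). Prc1 had -0.46 (SE 0.22), and the highest were Ndc80 (0.21, SE 0.40), Kif4 (0.13, SE 0.13) and Kif2c (0.13, SE 0.14). The mean of the glandular stomach markers spread from 0.70 to 6.32 within the vehicle group and from 1.29 to 6.46 at the high dose. These markers were below vehicle at every dose, with medians of -1.61, -1.50 and -0.98 over 7 genes at the rising doses and 0, 0 and 1 of them above vehicle, though none had an unadjusted p under 0.05. Their part in the values of the mitotic genes was not tested.

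Whether the response at the high dose differed between tissues was tested as the difference of the differences over all 58 arrays, at an adjusted p not above 0.05. Between lung and liver 1 of the 53 genes passed, Pimreg (0.0339% of all genes), and 19 had an unadjusted p under 0.05, all higher in lung (5.19%). Pimreg in liver read -3.26, -3.67, -3.33 and -3.64 in vehicle mice and -3.42, -4.14, -3.83, -3.67 and -3.99 at the high dose, a difference of -0.33 where lung had 1.03. The response in lung was larger by 1.37 (SE 0.24; limma with Benjamini-Hochberg, adjusted p = 0.0081).

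Between lung and forestomach 1 gene passed, Birc5 (0.029% of all genes), and 28 had an unadjusted p under 0.05, all higher in lung (1.71%). Birc5 in forestomach read -1.97, -2.29, -1.89 and -1.72 in vehicle mice and -2.13, -2.44, -2.67, -2.06 and -2.72 at the high dose. No exposed mouse was above the vehicle mean there, and the response in lung was larger by 1.499 (SE 0.29; limma with Benjamini-Hochberg, adjusted p = 0.0409). It was lost without any one of lung mice 1, 2, 4, 5, 16, 17, 18 and 19 and of forestomach mice 1, 3, 5, 18 and 20, and 2 genes passed without lung mouse 20 or forestomach mouse 17. Neither tissue difference was called with arrays centred on their medians. Spc25 (1.37) and Cdc20 followed (limma, adjusted p = 0.112 for both), and the other 3 of the 7 called genes beyond these and Pimreg had adjusted p of 0.234 to 0.236.

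The levels in vehicle mice differed widely between tissues. Relative to the same reference RNA, vehicle forestomach was above vehicle lung in 50 of the 53 genes in the mean, with a median difference of 1.09. By the same rule for calls 41 genes were higher (14.2% of all genes) and 0 lower (17% of all genes). Birc5 was 2.65 higher (6.27-fold), Spc25 2.35, the passenger gene Cdca8 2.25 and Mki67 2.12. The genes below lung in the mean were Hmmr (-0.27), Bub3 (-0.24) and Pttg1 (-0.07), and Aurkb was below background in both. All 7 genes that rose in lung at the highest dose were among those higher in forestomach, and their level in exposed lung was still under that of vehicle forestomach in 6, Birc5 being at -3.55 (SD 0.43, n = 5) in lung at the high dose and at -1.97 (SD 0.24, n = 4) in vehicle forestomach. The exception was Pimreg, with -2.77 (SD 0.32, n = 5) and -3.05 (SD 0.24, n = 4).

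Against vehicle liver, vehicle forestomach was higher in 31 genes (21.5% of all genes) and lower in 1, Spc24 (15.3% of all genes), with a median difference of 0.84. Mki67 was 3.47 higher and Cdc20 3.12. In 18 genes forestomach was above background and no liver mouse was, so that a difference there has only a bound, and 5 of the 31 are among them. In 2 more, Aurkb and Ttk, both tissues were below background. Lung against liver gave 8 higher (25% of all genes) and 11 lower (16.3% of all genes). Of the 11, 5 (Bub1, Ska1, Kif2c, Kif4 and Ckap2) were above background in no liver mouse and give no direction, which leaves 6 genes measured as higher in liver. Incenp was 1.37 higher in lung, Mki67 1.35 and Cdc20 1.12, whereas the difference was -2.49 for Spc24 and -1.55 for Cdca8, both higher in liver. With arrays centred on their medians the count of forestomach against lung was 17, and that of lung against liver 30. Shares of all genes and directions were not counted with that centring. Liver arrays had been read with a later version of the scanner software and lay on slides of their own, so slide and tissue cannot be told apart there.

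**Figure D5:**
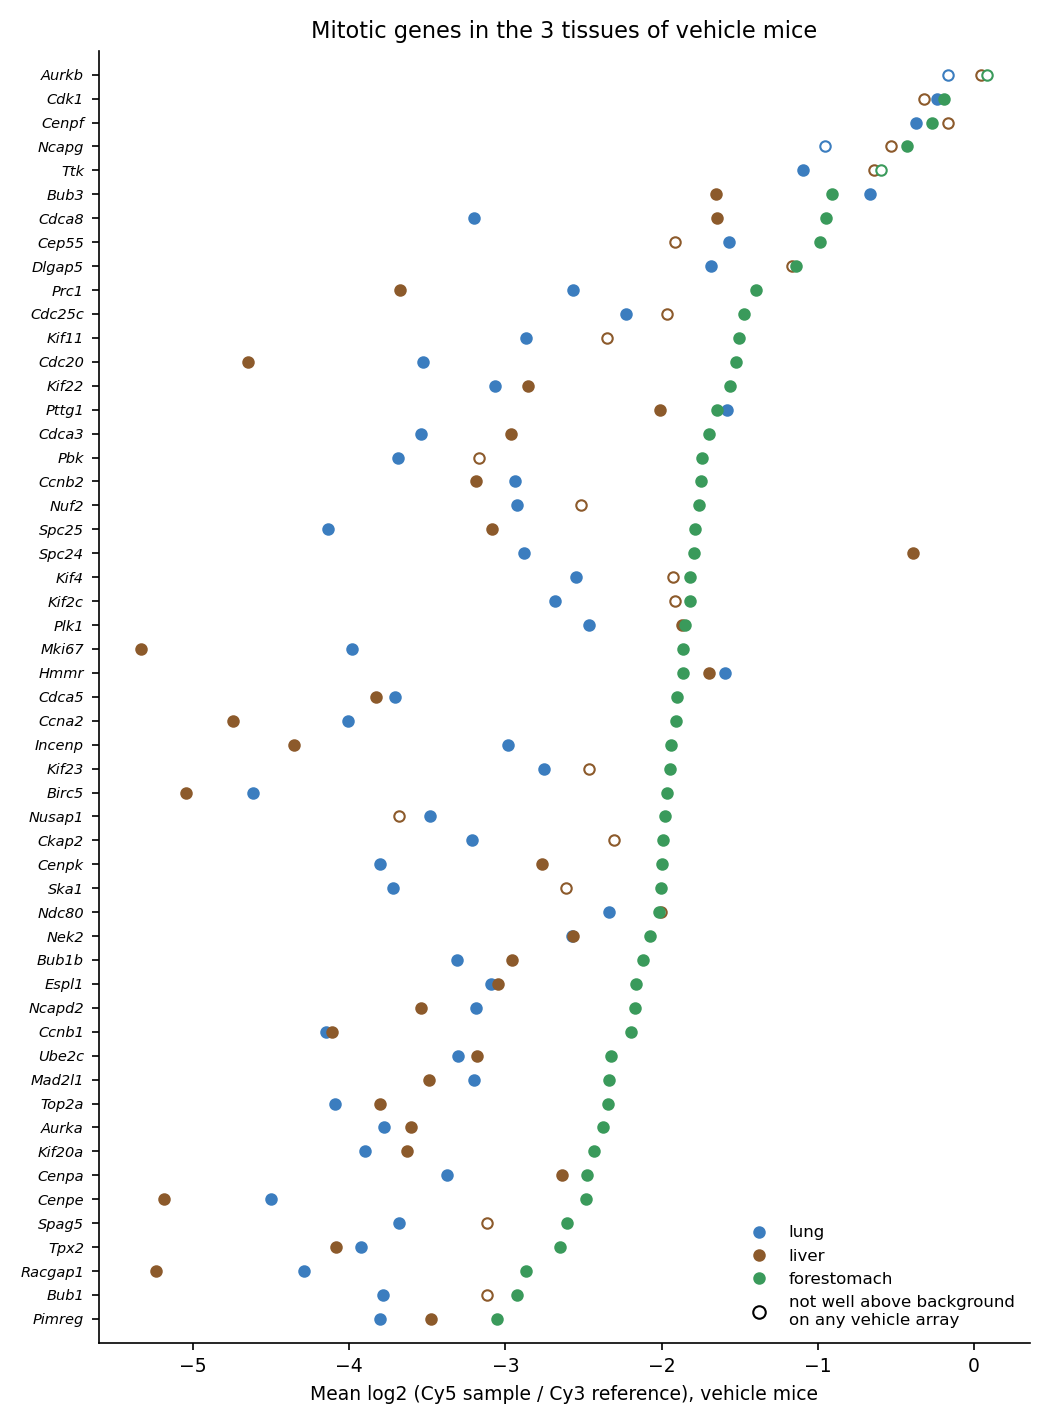
Mean log2 ratio of tissue to reference RNA in vehicle mice (x axis) of each of the 53 genes in lung (n = 5), liver (n = 4) and forestomach (n = 4). Genes are ordered by their mean level in vehicle forestomach (y axis). Open points were not well above background on any vehicle array of that tissue, and forestomach lies to the right of lung in 50 of the 53 genes.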

How the data were processed

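RNA of 58 tissue samples was hybridized against universal mouse reference RNA on Agilent two-colour arrays, which the authors scanned and read with Feature Extraction (10.7.3.1 for lung and forestomach, 11.0.1.1 for liver, per the file headers). The deposited intensity values of each array are median Cy5 and Cy3 signals per spot, and the log10 ratio of the scanner software, deposited beside them by the authors, was used as an alternative. The authors also deposited log2 values after LOWESS normalization. In lung and forestomach they correlated with the values used here at 0.996 or more and served as an alternative, whereas in liver their probe names did not match the scanner values (r of -0.01 to 0.01) and they were not used here.

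Ratios of median signals without background subtraction, as in the study's methods, were loess normalized within each array, outlier spots (0.396%) were left out, spots of a probe were averaged, and the brightest of a gene's probes stood for it. Probes were named through RefSeq accessions (27267 of 55681 probes, 20678 genes). Each tissue was fitted with its 4 groups, and differences between tissues over all 12 groups, in limma 3.58.1 (R 4.3.3) with Benjamini-Hochberg adjustment over all probes, where the study used MAANOVA. Calls needed a fold change of 1.5 or more and an adjusted p not above 0.05. Single genes were also tested with exact two-sided permutation tests over mice. The script was tested on simulated data.

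The 53 genes and all lists were chosen with earlier results of these data known. Genes described in full were every called gene, the 3 highest and 2 lowest at the high dose in each tissue among genes above background on at least 1 array of both groups, and the highest and lowest of each role in lung, and of other lists the 2 genes that differed most in lung. The labels number the mice across tissues: in 19 mice the deviations from the group mean had a median correlation of 0.04 between lung and liver, 0.15 between lung and forestomach and 0.02 between liver and forestomach, so mouse was used as a random block in an alternative. The labels number 5 vehicle mice in lung, where their extraction protocol gives 4. Alternatives covered background correction (normexp, offset 50), normalization, input values, outlier spots, dim probes, slide, samples in the fit, variance model, probe choice, thresholds and single mice. The number of arrays limits the precision. Promoter stretches came from RefSeq (GRCm38.p6).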

Additional observations from a re-analysis of the deposited data

Results flagged for a closer look

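Of 40 groups of mice examined (the mean over the 53 genes in the 12 groups of all tissues, and the 7 genes called in lung in the 4 groups of lung), 4 held a mouse far from the others, and chance gives about 1 in 20. The measure is the gap to the nearest mouse over the whole range of the group. In the mean over the 53 genes, lung vehicle mouse 3 was the highest (-2.53 against -3.08 to -3.01 in the others; 0.877), forestomach vehicle mouse 2 the lowest (-2.02 against -1.74 to -1.71; 0.884) and forestomach mouse 20 at the high dose the lowest (-2.27 against -1.92 to -1.81; 0.777). Birc5 in lung mouse 9 at the low dose was the highest (-4.08 against -4.76 to -4.60; 0.763). Lung vehicle mouse 3 was on slide 3, and without it 7 genes were called in lung at the high dose.

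The response to the high dose differed between tissues in 2 tests of the difference itself. For Pimreg the response in lung was larger than in liver by 1.37 on the log2 scale, and for Birc5 it was larger than in forestomach by 1.499 (limma with Benjamini-Hochberg, adjusted p = 0.0081 and 0.0409). Neither passed with arrays centred on their medians. With single mice left out, 0 to 2 genes differed between lung and forestomach. The dimmer probes of Birc5 were not called in lung.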

How the results depend on the processing

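The 7 calls in lung at the high dose became 0 with arrays centred on their medians, with Cy5 alone, with the log ratio of the scanner software and with the 2 groups fitted alone, 12 with slide as a block, and 30 (5.94% of all genes) at a looser threshold (fold change of 1.2 with an unadjusted p under 0.05). They were 3 without slide 3, an alternative chosen after seeing the data, as was leaving out the liver arrays with the most probes above background, which gave no call. Leaving out 1 mouse gave 2 to 10. The median of the 53 genes there was 0.62 with the scanner ratio (all genes 0.015). The 0 calls against the low dose became 2 with normexp, 10 with slide as a block, 27 (1.47% of all genes) at the looser threshold and 0 to 9 with 1 mouse left out. Shares of all genes were not counted there for normexp or slide as a block. They were likewise not counted for fits without slide 3 or with 1 mouse left out.

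At the looser threshold liver gave 4, 2 and 7 calls at the rising doses (1.71%, 3.44% and 6.49% of all genes) and forestomach 2 at the low and 2 at the high dose (2.88% and 2.58%). With arrays centred on their medians the liver medians were 0.16, 0.19 and 0.52 (all genes 0.17, 0.16 and 0.28) and the forestomach medians 0.23 at the middle and 0.22 at the high dose (all genes 0.18 and 0.21), and with the scanner ratio the liver medians were 0.12 at the middle and 0.54 at the high dose (all genes 0.018 and 0.050). Differences between tissues in the response numbered 19 (liver) and 28 (forestomach) at an unadjusted p under 0.05 and 0 with centring, and 1 to 1 and 0 to 2 with 1 mouse left out. Centring gave 17 in place of 41 calls between vehicle forestomach and lung and 30 in place of 19 between vehicle lung and liver, where Cy5 alone gave 9. With mouse as a replicate block these 5 counts were 1, 1, 41, 33 (forestomach and liver) and 19, and none of the 5 moved by over 1.5 times. Shares of all genes and directions were not counted for these alternatives.

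Small differences crossed 0. In lung, centring gave Ndc80 0.10, Hmmr 0.027 and Cep55 0.098, all below the median of all genes with that scaling (0.12), so that their place relative to all genes did not turn. Cy5 alone gave Cep55 0.042 (all genes 0.0015) and the scanner ratio gave it 0.033 (all genes 0.015), both above the median of all genes. Leaving out slide 3 gave Ndc80 0.00583. With 1 mouse left out Ndc80 ran from -0.40 to 0.31, Cep55 from -0.24 to 0.11, Cdc25c from -0.037 to 0.21 and Kif4 from -0.067 to 0.24. In liver, Hmmr was 0.20 and Top2a 0.17 with centring, again below all genes (0.28), and Top2a was 0.15 with the scanner ratio, above all genes (0.050). In forestomach, Kif4 was -0.053 with Cy5 alone, and Ndc80 -0.043 with slide as a block, -0.11 without slide 3 and -0.11 to 0.40 with 1 mouse left out. Apart from centring, the cause was not tested in these. Aurkb and Ncapg, not above background in either lung group, have no fold change and were left out. The authors' values for liver were not run.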
